A study of Homo sapiens with 6 samples.

Results

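Ribosomal proteins are the protein parts of the machines that translate mRNA. Human cells hold a cytosolic set, which translates all nuclear-encoded mRNAs and is named RPL for the large and RPS for the small subunit. A separate mitochondrial set, named MRPL and MRPS, is also encoded in the nucleus, and it serves the few mRNAs that mitochondria make themselves. The cytosolic mRNAs are known to begin with a C followed by a run of pyrimidines, the terminal oligopyrimidine tract (TOP), through which growth signals control their translation. The members described here were chosen by symbol: every probe whose annotated symbol starts with RPL, RPS, MRPL or MRPS and a digit. Left out were 19 probes of the RPS6K kinases, 31 of pseudogenes and 2 of read-through or antisense loci. That gave 235 of the 47323 probes on the array, for 153 of the 20046 genes named by single-symbol probes. They split into 124 probes for 76 cytosolic genes, 110 probes for 76 mitochondrial genes, and 1 probe for RPS19BP1, which fits the letters of the rule but encodes a binding protein of RPS19 and was kept out of both sets.

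Rh30 cells, an alveolar rhabdomyosarcoma line of human origin with a PAX3-FOXO1 fusion, received either a control siRNA or an siRNA against P/CAF (siP/CAF), the lysine acetyltransferase and coactivator encoded by KAT2B. RNA was taken after 72 h, and each group had 3 samples, each read on 1 Illumina HT-12 bead array. Separate cultures are not stated in the labels, and each p-value therefore reflects the scatter of these samples alone, which may be technical. In bulk RNA, fewer cells of a type and less RNA per cell cannot be told apart. All values below are background-corrected, quantile-normalized log2 signals, differences are siP/CAF minus control siRNA, errors are SD over the 3 arrays of a group, and a gene counts as changed when its adjusted p in limma is under 0.05.

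Each array detected 20891 to 21421 probes at a median signal of 79.1 to 89.7. The 11806 genes tested are each represented by their brightest tested probe. KAT2B, the siRNA's target, stood at 9.49 ± 0.36 in controls and 6.72 ± 0.29 after siP/CAF (SD, n = 3), a log2 difference of -2.77 (limma, Benjamini-Hochberg adjusted p = 1.91e-04). Of 11 markers of rhabdomyosarcoma and myoblasts 9 were tested, among them MYOD1, DES and FGFR4, detected on all arrays, and MYOG fell by 1.67 (limma, Benjamini-Hochberg adjusted p = 6.88e-04). Fewer markers of other cells passed the detection filter: 4 of 8 for fibroblasts and smooth muscle, 1 of 6 for epithelium, 1 of 5 for endothelium and 2 of 6 for leukocytes. The endothelial PECAM1 measured -0.59 and passed the test, though not without any 1 array other than control array 3.

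The 2 sets differ at the gene start. RefSeq promoter sequences (build GRCh38.p14, 250 bases before to 50 after the start) were at hand for 64 cytosolic and 68 mitochondrial genes. A tract of at least 5 bases that are all C or T, beginning with C no more than 5 bases from the annotated start, was present in 76.6% of the cytosolic genes, 22.1% of the mitochondrial genes and 23.2% of 9474 tested genes. The lines that follow show 20 bases on either side of the start, in the direction of transcription, for members whose values are given further on, with the tract in capitals. The first 7 are cytosolic genes, of which RPS27L and RPL26L1, paralogs of RPS27 and RPL26, have no such tract.
RPL29 (chr3:51995876-51995915, minus strand): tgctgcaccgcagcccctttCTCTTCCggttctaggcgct
RPS7 (chr2:3575240-3575279, plus strand): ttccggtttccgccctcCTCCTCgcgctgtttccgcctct
RPS6 (chr9:19380217-19380256, minus strand): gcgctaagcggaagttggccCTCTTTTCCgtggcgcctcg
RPS27 (chr1:153990742-153990781, plus strand): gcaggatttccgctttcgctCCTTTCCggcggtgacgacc
RPS27L (chr15:63157458-63157497, minus strand): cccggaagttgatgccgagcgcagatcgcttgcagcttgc
RPL26 (chr17:8383174-8383213, minus strand): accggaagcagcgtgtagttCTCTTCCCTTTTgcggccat
RPL26L1 (chr5:172958709-172958748, plus strand): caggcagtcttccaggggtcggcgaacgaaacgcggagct
MRPL47 (chr3:179604619-179604658, minus strand): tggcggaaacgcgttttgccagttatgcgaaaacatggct
MRPL51 (chr12:6493243-6493282, minus strand): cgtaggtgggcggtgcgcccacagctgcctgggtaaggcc
MRPL12 (chr17:81703347-81703386, plus strand): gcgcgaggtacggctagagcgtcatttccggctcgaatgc
MRPS21 (chr1:150293841-150293880, plus strand): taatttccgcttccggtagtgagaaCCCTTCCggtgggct

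Short promoter motifs were searched on both strands of the same windows. CCGGAAG, the core bound by ETS-family factors, was found in 32.8% of cytosolic, 41.2% of mitochondrial and 19.4% of tested genes. AAGATGG, part of the motif of YY1, was in 14.1%, 33.8% and 7.68% of the same groups. GCATGCG, part of the NRF1 motif, was in 7.81%, 10.3% and 6.61%. CACGTG, the E-box that MYC can bind, was in 6.25%, 8.82% and 10.3%, and TATAAA in 9.38%, 2.94% and 5.98%. These matches describe letters in a window and are not evidence of binding.

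No ribosomal protein gene passed the test after siP/CAF when all 6 arrays counted alike. Some mitochondrial genes were called lower when arrays were weighted or both arrays numbered 3 were left out, as given further on. Of the 150 members tested none passed limma's test on its brightest probe, against 5.37% of the 11806 tested genes (2.28% higher and 3.09% lower), and no other member probe passed either (0 of 223, against 4.58% of all tested probes). The smallest adjusted p among the member genes was 0.180. Tested genes with a signal within the quartiles of a set, ribosomal protein genes included, are termed genes of like signal below. Of these, for the cytosolic set 2 of 367 were called higher and 2 lower, and for the mitochondrial set 32 and 40 of 2154. Of the 363 tested probes with a mean log2 signal of 14 or more, where 53 of the 118 cytosolic probes lie, 0 were called. Without adjustment 3 members, or 2.0%, had a p under 0.05, against 20.6% of tested genes. That count rested on single arrays: it was 9 without control array 2, 8 without control array 3 and 1 without siP/CAF array 1, when 19.1%, 23.7% and 14.7% of all tested genes had such a p. The 73 cytosolic genes had a median log2 difference of 0.04, with quartiles of -0.02 and 0.12, and the 76 mitochondrial genes a median of 0.03, with quartiles of -0.07 and 0.16. Over all tested genes the median was -0.01, with quartiles of -0.21 and 0.18. The mitochondrial median minus the cytosolic one was -0.01.

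**Figure D1:**
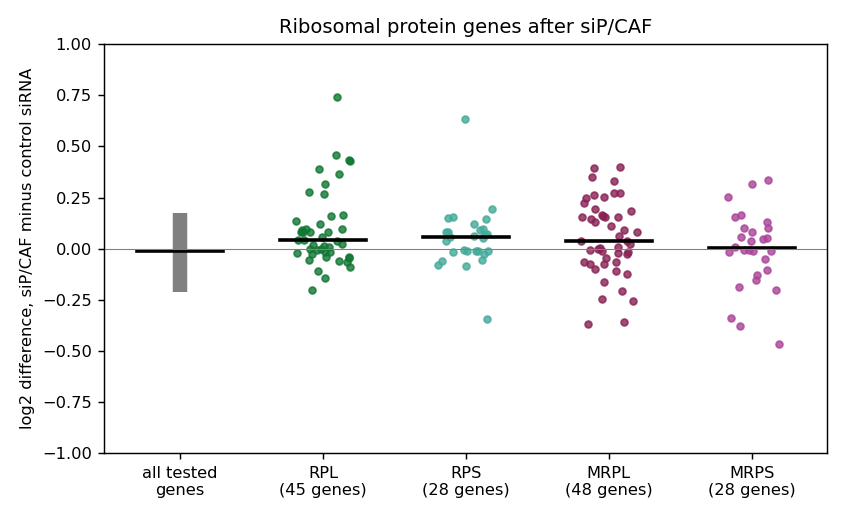
Log2 difference (siP/CAF minus control siRNA) of each tested ribosomal protein gene by its brightest probe, as 1 point per gene in 4 sets, with the set's median as a black line; the grey bar spans the quartiles of all 11806 tested genes. The set medians lie between 0.00 (MRPS) and 0.06 (RPS), and no point passed the test.

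The intervals give the size of difference that fits the scatter of these log2 signals. They do not cover a change flattened near the top of the signal range or by the normalization, which was not tested. For 56 of 73 cytosolic (76.7%) and 33 of 76 mitochondrial genes (43.4%) the 95% interval of the difference lay within a 1.5-fold change either way. That share was 46.0% of all tested genes, and 76.0% and 54.0% of the genes of like signal to the 2 sets. A 2-fold change lay outside the interval for 69 cytosolic (94.5%) and 75 mitochondrial genes (98.7%), against 89.9% of all tested genes. In the genes of like signal it did so for 97.5% and 94.5%. The typical interval reached 0.35 to either side of the estimate for the cytosolic and 0.47 for the mitochondrial genes, on the log2 scale. Large-subunit and small-subunit genes of a compartment did not stand apart from each other in their medians: RPL 0.04 and RPS 0.06, MRPL 0.04 and MRPS 0.00.

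Cytosolic large-subunit genes were led by RPL29, whose protein lies on the surface of the large subunit. RPL29 measured 9.97, 10.20 and 9.10 on the control arrays and 10.33, 10.28 and 10.87 on the siP/CAF arrays. The groups did not overlap, but control array 3 lay farther below the other controls than the group means lay apart. The difference of 0.74 (SE 0.28) missed the threshold, at a Benjamini-Hochberg adjusted p of 0.180 in limma, and a second RPL29 probe measured 0.71. RPL35 (0.32) and RPL23A (0.36), which border the tunnel through which the new chain leaves, and RPL13 (0.43) came next by p. None passed, with adjusted p-values between 0.356 and 0.372 in limma (Benjamini-Hochberg).

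The 3 large-subunit probes of highest signal had small differences. RPL41, which encodes a very short and basic peptide, measured 15.15, 15.20 and 15.15 in controls and 14.94, 15.08 and 15.06 after siP/CAF, so that the groups did not overlap although the log2 difference was only -0.14 (95% interval -0.46 to 0.17). RPL38 measured -0.06 and RPL6 0.04. RPL3, a core protein near the peptidyl transferase centre, measured 14.62 ± 0.15 and 14.62 ± 0.11 (SD, n = 3), a difference of -0.00 with an interval from -0.34 to 0.34.

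Among small-subunit genes RPS7, which has a part in processing the small-subunit rRNA and is known to bind MDM2, had the smallest p. It measured 11.50, 11.51 and 10.65 in controls and 11.93, 11.56 and 12.08 after siP/CAF. These values did not overlap, and again control array 3 was the lowest of all. Its difference was 0.63 (SE 0.25) at a Benjamini-Hochberg adjusted p of 0.194 in limma, and 0.73 on the gene's other probe (adjusted p = 0.167). RPS23, a protein of the decoding centre, measured 12.42, 12.37 and 12.81 in controls and 12.17, 12.39 and 12.02 after siP/CAF. The groups overlapped, and the difference of -0.34 was the lowest in the cytosolic set. RPS2 (0.15) followed by p, then RPS4Y2, whose level is not given, and RPS12 (-0.01), RPS29 (0.07) and RPS3 (-0.01) were the probes of highest signal. None of these passed the test.

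No cytosolic protein with a known second role passed the test. RPL5 and RPL11, which bind MDM2 together with the 5S rRNA and so link faulty ribosome assembly to p53, measured -0.00 and -0.05, and RPL23, another MDM2 binder, measured 0.02 (95% interval -0.37 to 0.40). RPL5 read 14.32, 14.29 and 14.36 in controls and 14.26, 14.35 and 14.35 after siP/CAF, so the groups overlap fully. RPS6, the substrate of the S6 kinases, measured 0.04 (95% interval -0.30 to 0.38), and RPS19, the gene most often mutated in Diamond-Blackfan anaemia, measured 0.05. RPL13A, which also takes part in a translational silencing complex of interferon-gamma treated monocytes, measured -0.20, from 13.12 ± 0.18 to 12.92 ± 0.01 (SD, n = 3).

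No paralog of a cytosolic gene passed the test. RPL22L1, a paralog of RPL22 that is known to be regulated by it, was read by a dim probe and measured -0.02, against 0.04 for RPL22. RPL26L1 measured 0.09 and RPL26 0.12, RPL7L1 0.08 and RPL7 0.16, and RPL39L -0.06 and RPL39 0.01. RPS27L, known as a p53 target, measured 0.06 and RPS27 -0.08. RPL36AL measured 0.27 and RPL36A 0.43, the widest pair, and neither passed (limma, Benjamini-Hochberg adjusted p = 0.511 and 0.476). RPL3L, the striated-muscle paralog of RPL3, and RPL10L, a paralog of RPL10 known from the testis, were not detected on enough arrays to be tested, and neither were both probes of RPL10 itself. Those 3 were the genes among 153 that could not be tested. Ribosomal protein genes have many near-identical processed pseudogenes, so probes may read more than the named locus.

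**Figure D2:**
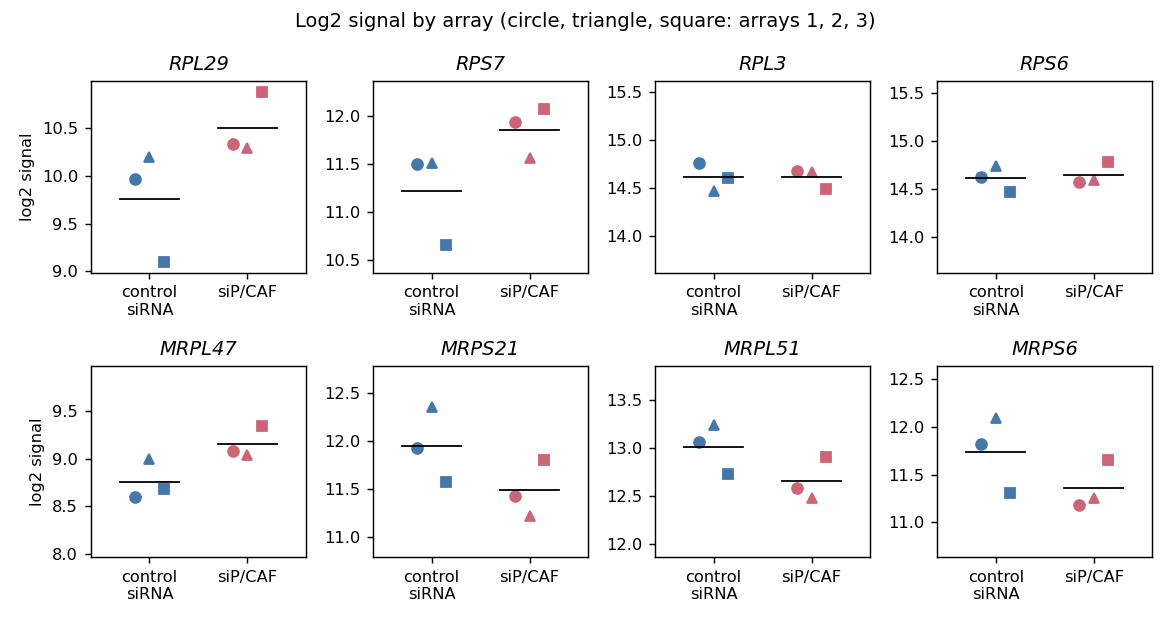
Log2 signal (vertical axis, 2 log2 units in every panel) on each of the 6 arrays for 4 cytosolic genes (upper row) and 4 mitochondrial genes (lower row), with circle, triangle and square for arrays 1, 2 and 3 of a group and a line at the group's mean. In RPL29 and RPS7 the square of the control group, at 9.10 and 10.65, is the lowest value, while RPL3 and RPS6 sit near 14.6 in both groups.

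Mitochondrial large-subunit genes gave the third member with an unadjusted p under 0.05. MRPL47 measured 8.60, 8.99 and 8.68 in controls and 9.08, 9.04 and 9.34 after siP/CAF. All siP/CAF values lay above all control values, by as little as 0.04. Its difference was 0.40 (SE 0.17; limma, Benjamini-Hochberg adjusted p = 0.239). MRPL19 (0.35) and MRPL10 (0.33), the anchor of the stalk that recruits translation factors, also had groups that did not overlap, and MRPL51 measured -0.36. Dimmer probes of MRPL47 and MRPL10 measured 0.36 and 0.06, with groups that overlapped. MRPL33 (0.13) and MRPL3 (-0.01), the other probes of high signal, and MRPL12 (0.06), a stalk protein also known to bind the mitochondrial RNA polymerase, lay near 0.

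By brightest probe MRPS21 had the lowest difference of all members, while its second probe measured -0.18 (limma, Benjamini-Hochberg adjusted p = 0.782). The brightest probe read 11.92, 12.35 and 11.57 in controls and 11.43, 11.21 and 11.80 after siP/CAF. Without the arrays numbered 3 the groups would lie apart, but control array 3 lay below siP/CAF array 3. The difference between the means was -0.47 (SE 0.23; limma, Benjamini-Hochberg adjusted p = 0.308). MRPS6 (-0.38) and MRPS34 (-0.34) lay lower and MRPS23 (0.33) higher, MRPS15 measured -0.01, and MRPS12, counterpart of the bacterial protein that guards decoding accuracy, measured 0.10. In the MRPS set 0 of 28 members had groups that did not overlap.

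Over all members, 12 of 150 (8.0%) had groups that did not overlap, 10 with siP/CAF higher and 2 lower, against 27.7% of all tested genes (12.6% higher and 15.1% lower). Among the cytosolic genes the share was 9.59%, against 13.6% of tested genes of like signal, and among the mitochondrial genes 6.58%, against 27.1%. An unadjusted p under 0.05 was found in 2.74% of cytosolic genes and 7.36% of genes of like signal, and in 1.32% of mitochondrial genes and 16.8% of genes of like signal. The 12 members whose groups did not overlap were RPL7A, RPL23A, RPL29, RPL35, RPS3A, RPS7, MRPL10, MRPL19, MRPL37 and MRPL47 among the higher, and RPL41 and MRPL38 among the lower. RPL7A, RPS3A, MRPL37 and MRPL38 are named here because their values did not overlap.

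**Figure D3:**
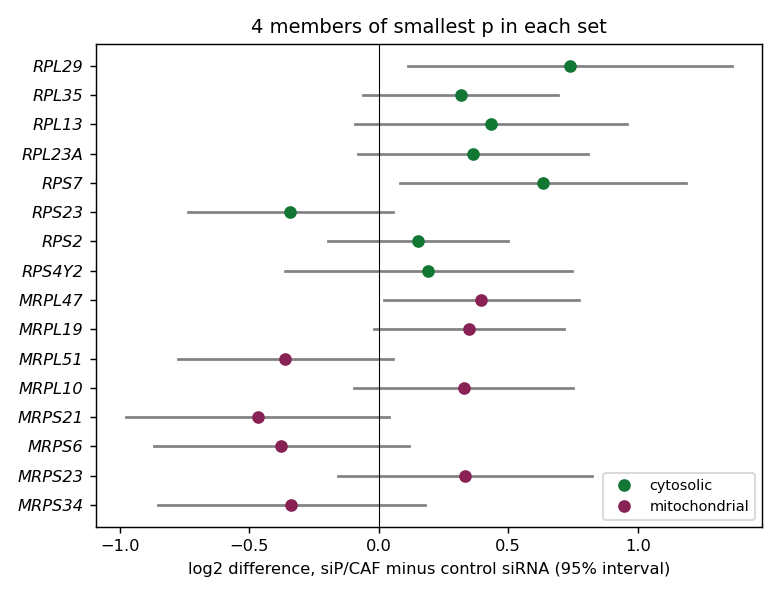
Log2 difference (point) and its 95% interval from limma (line) for the 4 tested genes of smallest p in each of the RPL, RPS, MRPL and MRPS sets. The intervals of RPL29, RPS7 and MRPL47 leave out 0 before any adjustment, and the other 13 include it.

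The array medians of the members differed within each group, and more so in the mitochondrial set. Relative to each gene's control mean, the mitochondrial median was 0.14 on control array 1, 0.23 on control array 2 and -0.39 on control array 3. After siP/CAF it was -0.02, -0.10 and 0.27 on arrays 1, 2 and 3. Control array 3 was thus the low one and siP/CAF array 3 the high one of its group, and the group means met near 0. The lowest of the 3 controls was array 3 in 89.5% of mitochondrial and 69.9% of cytosolic genes, against 31.7% of all tested genes. The highest of the 3 siP/CAF values was on array 3 in 84.2% and 64.4%, against 33.3%. With median scaling in place of quantile normalization, which called 6.11% of tested genes and 0 member genes, these shares were 80.3% and 83.6% for control array 3 and 84.2% and 84.9% for siP/CAF array 3, against 23.7% and 26.0% of all tested genes. Under that scaling the cytosolic share was thus no lower than the mitochondrial one.

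**Figure D4:**
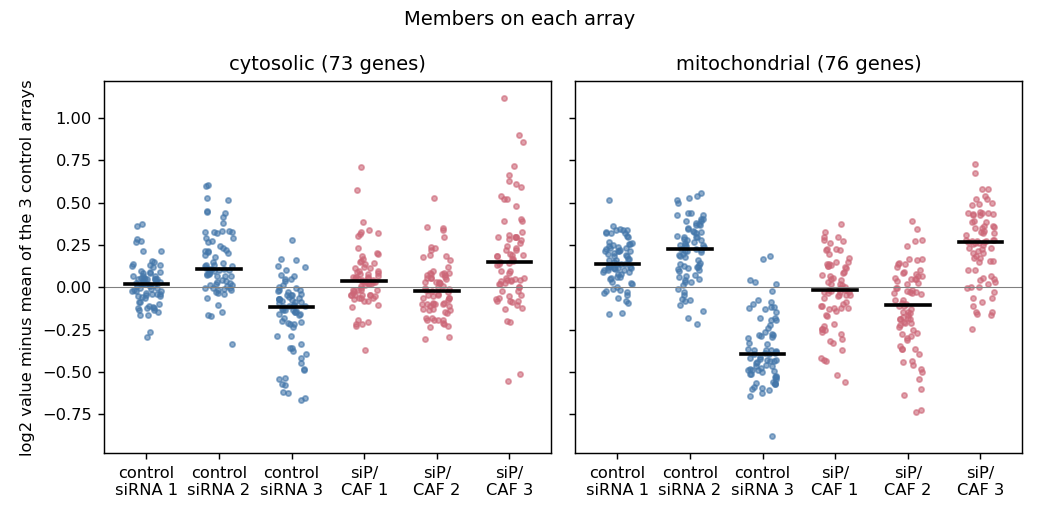
Log2 value of each tested gene minus the mean of its 3 control values, on each of the 6 arrays, for 73 cytosolic genes (left) and 76 mitochondrial genes (right); points are genes and black lines set medians. The mitochondrial medians run from -0.39 on control array 3 to 0.27 on siP/CAF array 3, and the cytosolic medians from -0.11 to 0.15 on the same arrays.

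The spread between arrays of a group, as the median SD over genes, was 0.31 in the mitochondrial and 0.15 in the cytosolic set. Over all tested genes it was 0.21. Tested genes of like signal had a median SD of 0.19 both for the mitochondrial set (2154 genes) and for the cytosolic set (367 genes). The mitochondrial members lay above that value and the cytosolic members below it. The match in signal is loose, since the 367 genes had a median log2 signal of 13.5, against 14.2 for the cytosolic members. What part signal has in the lower cytosolic spread was not tested. The median size of the difference between groups was 0.12 for mitochondrial and 0.08 for cytosolic genes, and 0.19 over all tested genes. At like signal it was 0.17 for the mitochondrial and 0.10 for the cytosolic comparison.

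Without control array 3 the mitochondrial median was -0.11 and the cytosolic -0.03, so both lay below 0. Without control array 3 and siP/CAF array 3 they were -0.22 and -0.06, still with 0 cytosolic genes changed and with 2 of 76 mitochondrial genes lower, MRPS6 and MRPS34 (both -0.74; limma, Benjamini-Hochberg adjusted p = 0.0469 and 0.0425), when 6.6% of all tested genes were called. In that choice 29 of the 150 members (19.3%) had an unadjusted p under 0.05, against 29.5% of all tested genes. This choice of arrays was made after the data were seen. Weighting the arrays by their own spread, which gave control array 3 the lowest weight (0.289), called MRPS6, MRPS21 and MRPL51 lower, at -0.59, -0.61 and -0.50 (limma, Benjamini-Hochberg adjusted p between 0.0396 and 0.0443), when 14.8% of all tested genes were called.

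Genes of complex I and the proteasome, other large complexes, showed the array pattern too. The 33 tested complex I subunits (symbols NDUFA, NDUFB, NDUFC, NDUFS or NDUFV with a digit) had medians of -0.35 on control array 3 and 0.18 on siP/CAF array 3. For 45 proteasome genes (symbols PSMA to PSMG with a digit) the medians were -0.20 and 0.14. These families were picked after the data were seen.

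The pattern also went with gene span. Tested genes in the shortest quartile of genomic span (up to 10.6 kb, GRCh38.p14) had a median of -0.11 on control array 3 and 0.08 on siP/CAF array 3, and those in the longest quartile (over 68.4 kb) 0.17 and -0.13. The cytosolic and mitochondrial members had median spans of 5.21 and 8.64 kb. What part span, RNA quality or the preparation of those arrays has in the pattern was not tested.

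Within the cytosolic set bright and dimmer probes had different medians. The 82 cytosolic probes with a mean log2 signal of 12 or more had a median difference of 0.02, while the 36 dimmer ones had a median of 0.36, 30 of them above 0. The difference did not go steadily with signal: 20 probes between 10 and 12 had a median of 0.41, and the 16 below 10 a median of 0.14, 12 of them above 0. All tested probes below 12 had a median of 0.00. On the dimmer cytosolic probes the median stood at -0.52 on control array 3 and 0.62 on siP/CAF array 3, and without those arrays the difference was 0.01. The 96 mitochondrial probes below 12 had a median of 0.04. Across the 118 cytosolic probes Spearman's rho between signal and difference was -0.48, and across the 104 mitochondrial probes -0.02, given as descriptions, since probes share the same 6 arrays.

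**Figure D5:**
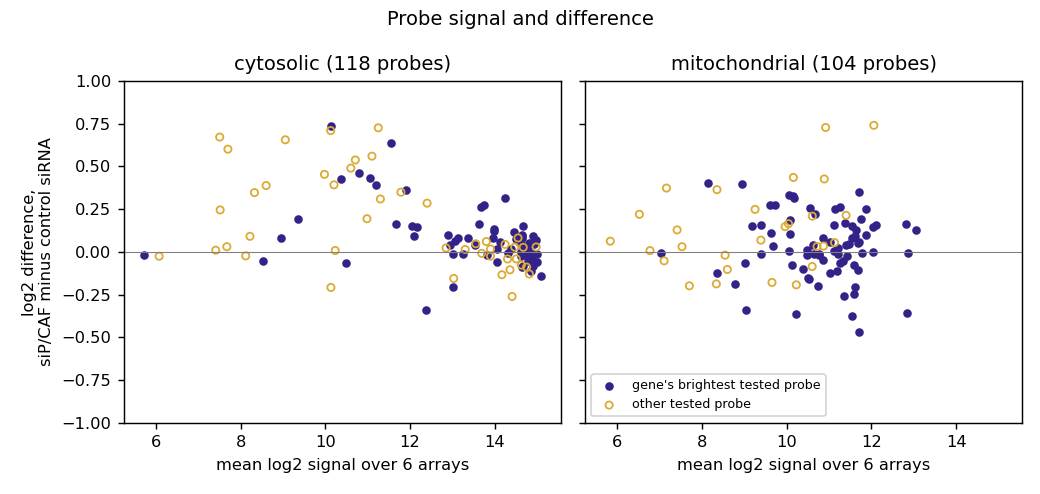
Log2 difference (vertical axis, siP/CAF minus control siRNA) against the mean log2 signal over 6 arrays for all tested probes of cytosolic (118, left) and mitochondrial (104, right) genes; filled points are each gene's brightest tested probe and open points its other probes. Cytosolic probes of 12 or more crowd around 0, and 30 of the 36 below 12 lie above 0.

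Probes of the same gene could disagree. Of 34 cytosolic genes with several tested probes the dimmest probe gave the higher difference in 21, and of 24 mitochondrial genes in 11. RPL32, a large-subunit protein, measured -0.04 on its brightest probe and 0.67 on a dim one (limma, Benjamini-Hochberg adjusted p = 0.115), while 2 other dim probes measured 0.09 and 0.01. MRPL33 measured 0.13 and, on a dimmer probe, 0.74 (adjusted p = 0.109), the smallest adjusted p of any member probe. RPL13 measured 0.66 on its dimmer probe, RPL9 0.54 on its dimmest against 0.10 on its brightest, MRPL11 0.73 on its middle probe against 0.15 on its brightest, and MRPL45 0.44 against 0.15. In all, 11 of 223 member probes (4.93%) had an unadjusted p under 0.05, all with siP/CAF higher, against 18.9% of all tested probes. The choice of these other probes followed from their values.

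Ribosomal proteins whose symbols the rule does not reach were examined next. Of 3 tested cytosolic ones none passed in limma, and 0 had an unadjusted p under 0.05. RPLP1 and RPLP2, acidic stalk proteins, measured -0.06 and -0.04 and FAU -0.01, and their median on control array 3 was -0.00. Of 4 mitochondrial ones none passed either, nor did any without adjustment, among them DAP3 (0.12), PTCD3 (0.13) and GADD45GIP1 (0.11), and their median on control array 3 was -0.35. Of 17 other genes with TOP mRNAs, mostly translation factors, none changed in limma. Against 20.6% of all tested genes, HNRNPA1 (0.47) was the 1 gene of this list with an unadjusted p under 0.05. Their median was 0.02, and EIF4B measured 0.19 and EEF2 -0.21. On control array 3 this list stood at 0.01, and the 53 cytosolic member probes with a mean log2 signal of 14 or more at -0.07.

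Nucleolar factors that build the cytosolic ribosome gave 1 change among 64 tested, against 5.37% of all tested genes. An unadjusted p under 0.05 was found in 3 of them, against 20.6% of all tested genes. SBDS, which helps release EIF6 from the nascent large subunit, rose by 0.78, from 10.55 ± 0.22 to 11.33 ± 0.12 (SD, n = 3; limma, Benjamini-Hochberg adjusted p = 0.0291). A near-identical pseudogene exists that the probe could read too, and the call was lost without any 1 array other than control array 3. UBTF, the factor of rRNA gene transcription, measured -0.42 and RRN3, its partner at RNA polymerase I, 0.51, and neither passed; the list's median was 0.04. Of 34 tested genes of mitochondrial ribosome assembly and translation none changed in limma. Against 20.6% of all tested genes, 2 of these 34 had an unadjusted p under 0.05. They were MTG2, an assembly GTPase (-0.38), and TFAM, the packaging factor of mitochondrial DNA (0.34), and the next by p, MRM1, measured -0.44. The list's median was -0.05.

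Among regulators upstream of ribosome synthesis, 1 of 8 genes of the MYC network passed the test, against 5.37% of all tested genes. MXD3, a MAX partner that opposes MYC, fell by 0.70 (limma, Benjamini-Hochberg adjusted p = 0.0387), a call kept without control array 3 and lost without each other array. In all 3 of the 8 had an unadjusted p under 0.05, against 20.6% of all tested genes. The others were MYCN (-0.46) and MYC (0.45), which did not pass after adjustment although their groups did not overlap (limma, Benjamini-Hochberg adjusted p = 0.127 and 0.134). The list's median was -0.25. Of 5 tested genes in the p53 arm of ribosomal stress none passed in limma, and 1 had an unadjusted p under 0.05. That was CDKN1A, at -0.58 (limma, Benjamini-Hochberg adjusted p = 0.0523); the next by p were MDM2 at -0.18 and MDM4 at 0.19, and the list's median was -0.15.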

How the data were processed

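Bead signals (intensity, linear scale) of every probe and array stand in the deposited non-normalized table, per the file headers, and beside it a score headed as a p value. That deposited score rises with the signal and was read, from the values, as 1 minus the detection p. The deposited series matrix holds log2 values from which each probe's median was taken; this was found by setting its columns against the signals (r between 0.933 and 0.970; column medians 0), how it was normalized is not stated in the labels, and it served as an alternative. Signals were corrected by normexp from the detection p-values with an offset of 16 and quantile normalized (neqc, limma 3.58.1, R 4.3.3). The test took the 21232 of 47323 probes detected (p under 0.05) on 3 or more of the 6 arrays, by limma without a block, adjusted by Benjamini-Hochberg over all of them. The number of arrays limits the precision. Of all probes 30113 carried 1 gene symbol in the platform annotation. Of 235 member probes 223 passed the filter, and each gene stands by its brightest tested probe. The members, lists and alternatives were chosen with earlier results of these data known. Genes named are every changed member, in each of 4 sets the 4 of smallest p and the 3 of highest signal, paralogs with their parents, members with known second roles, the 3 of smallest p in each list and KAT2B. Longer forms of the YY1 and NRF1 motifs were searched before the short ones given. The procedure was tested on simulated data.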

Additional observations from a re-analysis of the deposited data

How the results depend on the processing

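No cytosolic gene changed under any of the 16 alternatives run (background correction, offset, scaling, filter, weights, the deposited matrix, probe averaging, arrays left out and the replicate block). For mitochondrial genes 3 were called with array weights, 2 without control array 3 and siP/CAF array 3, and 0 under the other 14. The cytosolic median lay between -0.03 and 0.10 with 1 array left out, the mitochondrial median between -0.11 and 0.14 and their difference between -0.07 and 0.06; median scaling, which moved the median of all genes to -0.06, gave 0.11, -0.01 and -0.12. All of these shifts from the main medians lay within the spread between arrays, except for the cytosolic median of -0.063, both with the replicate block and without control array 3 and siP/CAF array 3. That spread is the pooled SD of a set's median over the arrays of a group: 0.10 cytosolic, 0.27 mitochondrial and 0.18 for their difference. It is taken over the same arrays, the ones numbered 3 included. Leaving out 1 array of a group can hardly shift a median by more than this spread. Shifts within it thus cannot show that a median is stable, in particular the mitochondrial one without the arrays numbered 3. The replicate block used arrays 1 and 2 of each group, because the last siP/CAF array has no number in its title. It gave a mitochondrial median of -0.22 and 433 changed genes in all. Deviations of same-numbered arrays from their group means correlated at -0.15 and -0.41. Those means include the arrays numbered 3, which affect both deviations, so the correlations cannot show whether same-numbered arrays were paired. The count over all genes was 634. Leaving out 1 array gave 209 (siP/CAF 1), 249 (control 1), 267 (siP/CAF 2), 331 (siP/CAF 3), 349 (control 2) or 720 (control 3). It was 779 without both arrays numbered 3, and 1748 with array weights. The cause was not tested. KAT2B stayed called throughout, at -2.15 to -2.91. The members with an unadjusted p under 0.05, 3 of 150, numbered 15 with array weights, 24 with the replicate block and 1 to 9 with 1 array left out. Sign changes among the 150 members numbered between 0 and 66 by alternative, with 66 both under the replicate block and without both arrays numbered 3. Signal over background limits the 3 untested genes.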
